A study of Mus musculus with 4 samples.

Results

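FoxO transcription factors and the genes they are known to control in wasting muscle were examined in quiescent mouse myoblasts given Wnt3A. The set was fixed by gene name: Foxo1, Foxo3, Fbxo32, Trim63, Gabarapl1, Map1lc3a, Map1lc3b, Txnip and Sqstm1. All probe sets that the platform annotation assigns to one of these symbols were taken, which gave 19 of the 22690 probe sets on the array, for 8 of the 9 genes. Trim63, the gene of the muscle ubiquitin ligase MuRF1, matched no probe set and was not analysed here. The cells were C2C12, an established mouse myoblast line, grown with 20% fetal calf serum and then held for 48 hours in semi-solid methyl cellulose, which brings them into G0, a resting state they can leave again to divide. The control group (2 arrays) had no other treatment by its treatment label, and the Wnt3A group (2 arrays) had purified Wnt3A at 50 ng/ml over the same 48 hours. Wnt3A is a secreted ligand that stabilises β-catenin. The labels call the arrays biological replicates without saying whether the cultures were started apart, so the tests measure the spread between these arrays.

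FoxO proteins are forkhead transcription factors. When insulin or growth factor signalling is low they stay in the nucleus, and in muscle they are known for switching on atrogenes, the genes that rise in many kinds of muscle wasting. Among these are ubiquitin ligases, which mark muscle proteins for the proteasome, and proteins of autophagy, the route by which a cell encloses its own material in a vesicle and digests it in the lysosome. FoxO activity has also been linked to the resting state of muscle stem cells, and FoxO proteins can bind β-catenin.

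Promoters were read from RefSeq (build GRCm38.p6), as the window from 250 bases before to 50 bases after each gene's start, and 7 of the 9 genes matched an entry; Fbxo32 and Map1lc3a were not among them. Shown first are those of Txnip and Gabarapl1, the only measured members with an entry that hold a forkhead sequence in the window, and then those of the paralogs Foxo1 and Foxo3, whose signals lay on opposite sides of their controls. Each is written 5′ to 3′ along its gene, with any match to a searched motif in capitals. The windows are chr3:96557707-96558006 (plus strand) for Txnip, chr6:129532942-129533241 (plus strand) for Gabarapl1, chr3:52268087-52268386 (plus strand) for Foxo1 and chr10:42276646-42276945 (minus strand) for Foxo3.
Txnip: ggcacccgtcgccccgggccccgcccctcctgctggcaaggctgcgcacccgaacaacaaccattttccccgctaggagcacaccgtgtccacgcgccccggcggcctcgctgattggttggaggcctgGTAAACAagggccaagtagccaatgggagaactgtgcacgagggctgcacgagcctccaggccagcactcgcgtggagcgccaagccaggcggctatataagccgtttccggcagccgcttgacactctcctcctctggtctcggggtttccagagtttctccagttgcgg
Gabarapl1: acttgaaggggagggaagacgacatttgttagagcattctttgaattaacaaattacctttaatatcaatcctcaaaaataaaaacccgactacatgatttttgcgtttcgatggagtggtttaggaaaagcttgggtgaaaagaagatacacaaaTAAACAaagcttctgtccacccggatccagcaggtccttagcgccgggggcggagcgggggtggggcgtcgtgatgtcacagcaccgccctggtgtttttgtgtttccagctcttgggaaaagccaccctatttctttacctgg
Foxo1: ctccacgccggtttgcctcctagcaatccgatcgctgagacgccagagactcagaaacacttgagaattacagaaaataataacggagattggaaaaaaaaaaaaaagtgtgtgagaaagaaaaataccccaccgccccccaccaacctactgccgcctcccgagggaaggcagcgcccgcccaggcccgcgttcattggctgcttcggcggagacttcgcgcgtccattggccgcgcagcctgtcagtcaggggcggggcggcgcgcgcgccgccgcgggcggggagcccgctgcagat
Foxo3: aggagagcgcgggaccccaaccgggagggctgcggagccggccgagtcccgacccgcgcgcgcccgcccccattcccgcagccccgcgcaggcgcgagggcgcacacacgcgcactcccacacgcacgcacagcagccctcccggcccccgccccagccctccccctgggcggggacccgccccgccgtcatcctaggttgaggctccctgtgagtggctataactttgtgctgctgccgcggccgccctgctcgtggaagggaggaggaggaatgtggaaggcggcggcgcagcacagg

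The FoxO core site GTAAACA, searched on both strands, was in the promoter of Txnip, with its first base 121 bases before the start, and in that of Trim63, where it lies on the opposite strand 194 bases before the start. It is found in 3.65% of all 32851 promoters listed. The 6-letter forkhead core TAAACA, which overlaps the longer motif and was added after the sequences were seen, was also in the Gabarapl1 promoter, 94 bases before the start; 13.4% of all promoters hold it. The insulin-response form CAAAACA (6.28% of all promoters), the core of the CLEAR element of lysosomal and autophagy genes TCACGTG (3.77%), the E-box CACGTG that lies inside it (7.15%) and the TCF/LEF core CTTTGAT (3.73%) matched none of the 7 promoters. The core of the antioxidant response element, TGACNNNGC (12.4%), matched that of Map1lc3b alone, just after the start. A match describes the letters and not a bound site, and a missing match says only that these letters are not in this window.

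Signals are on a log2 scale, so a difference of 1 is a 2-fold change, and a difference is Wnt3A minus control. Means are given ± SD with n = 2 arrays per group. Tests are those of limma over the 16969 probe sets outside the array controls that lay above a limit for dim signals, 2.01, which left out the lowest 25%. Of the 19 member probe sets 18 were tested. With 2 arrays per group the number of arrays limits the precision. No member probe set passed an adjusted p of 0.05, and neither did any of the 16969 (0% called; lowest adjusted p in limma 0.142), where 839 (4.94%) had an unadjusted p under 0.05; 3 of the members did. The words higher and lower below therefore describe these arrays and not a tested change. In 8 of the 18 tested member probe sets both Wnt3A arrays lay below both controls (17.9% of all tested probe sets did), and in 3 both lay above (15.1%). The 8 belong to 5 genes and the 3 are all of Foxo3, where 1450236_at passed the dim limit only through its Wnt3A signals. Of the members, 3 probe sets were at least 2-fold apart without overlap, against 3.03% of all tested probe sets. This count depended on single arrays, and without Wnt3A replicate 2 no member difference reached 2-fold. The count over all tested probe sets also moved when an array was left out, and lack of overlap is easier to meet with fewer arrays.

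Scaling the arrays to their hybridization controls instead adds 0.32 to every difference and moved the median of all tested probe sets from 0 to 0.31. The probe sets without overlap were then 89.9% higher, where 45.8% were higher with the values as deposited. The order of the differences is the same by construction, but any difference less than 0.32 below 0, for a member, a list median or another gene, turns positive. Under this scaling the bright probe sets of Foxo1, Fbxo32, Gabarapl1 and Map1lc3a stayed below 0 and those of Foxo3 stayed above 0. Then 0 member probe sets were at least 2-fold apart without overlap, while the count over all tested probe sets rose from 515 to 710. The added 0.32 narrows every difference well below 0 and widens those above it.

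The medians of the 4 arrays were between 4.15 and 4.22. Control replicate 2 read 7.24 for the array's 18S ribosomal RNA control, where the others read 9.17 to 10.35. The myoblast genes Des, Vim and Myf5 were well above the dim limit on all arrays, with Des at 8.10 to 9.08, while the stem cell gene Pax7 read 1.84 to 2.15, near that limit. The mean of 10 genes of differentiated muscle was 7.41 and 8.65 in the controls against 7.02 and 6.84 with Wnt3A, so control replicate 2 stood apart there. The mean of 6 genes of dividing cells was 4.02 and 5.30 in the controls against 4.15 and 5.06 with Wnt3A, higher on the arrays numbered 2 in both groups. Means of markers of fibroblasts were 4.41 and 4.57 in the controls against 3.66 and 3.60 with Wnt3A. The 4 tested fibroblast genes were all lower without overlap, as were 19.6% of all genes tested. Means of leukocyte markers lay at 2.88 to 3.24. Of the 4 tested, 2 were higher and 1 lower with Wnt3A without overlap, beside 14.8% and 19.6% of all genes tested. Means of adipocyte markers lay at 1.49 to 2.40. Those of endothelial markers lay at 1.79 to 1.92 and of epithelial markers at 2.02 to 2.67. Ptprc, Pecam1 and Epcam were under the dim limit on every array. These means mix dim and brighter genes: Cd14 read 7.54 and 7.40 in the controls against 6.16 and 6.46 with Wnt3A, and Fabp4 3.91 and 3.66 against 2.26 and 2.66. Going the other way, Csf1r of the leukocyte list read 3.26 and 3.39 against 3.53 and 5.19. Krt19 of the epithelial list read 2.57 and 4.39 against 3.27 and 5.61, with overlapping groups. As these are bulk samples, fewer cells with a transcript and less of it per cell cannot be told apart.

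**Figure D1:**
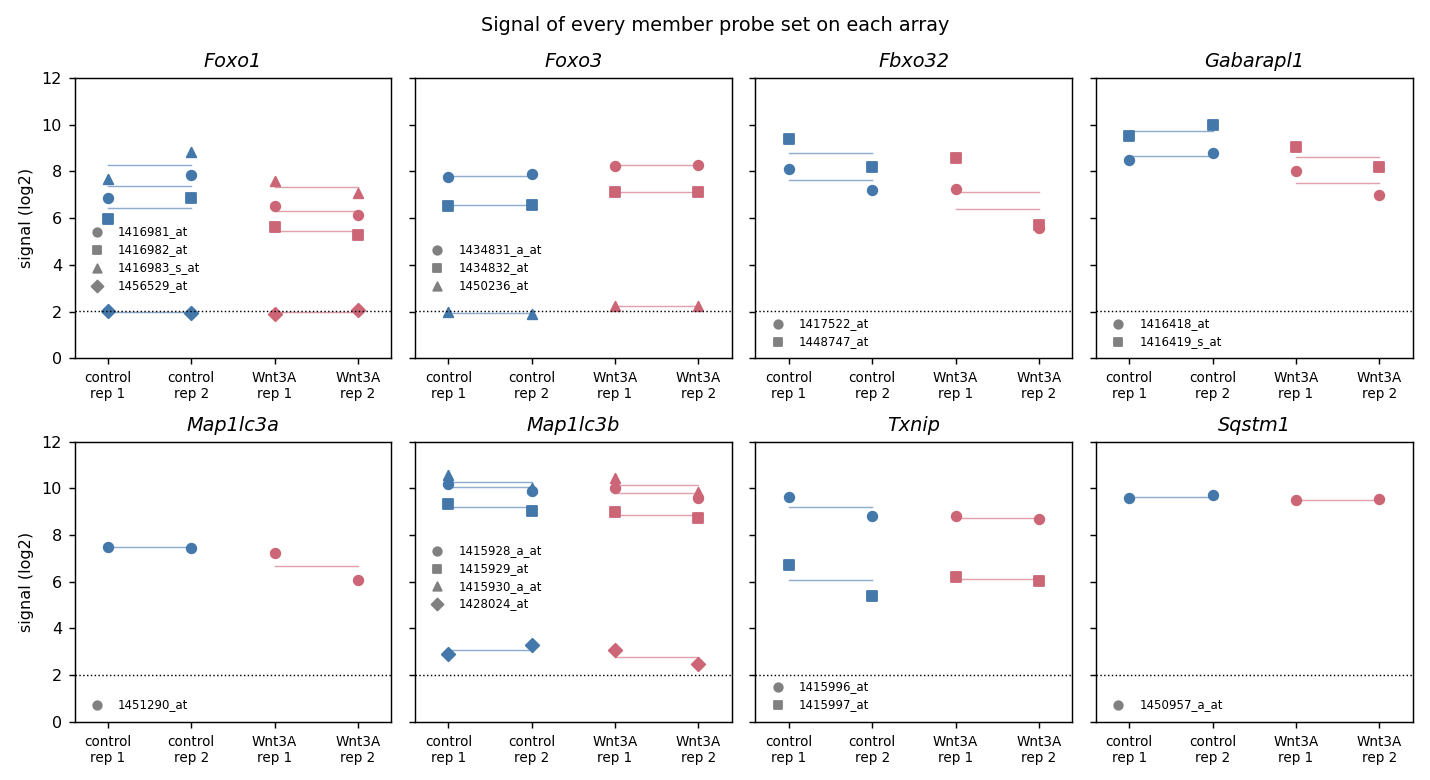
Signal (log2) of each of the 19 member probe sets on the 4 arrays; points are arrays, control in blue and Wnt3A in red, short lines are group means, symbols mark probe sets and the dotted line is the dim limit of 2.01. Foxo1 and Gabarapl1 lay lower and Foxo3 higher on both Wnt3A arrays in every probe set above the limit, and Fbxo32 was lowest on Wnt3A replicate 2.

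Foxo1 and Foxo3, the paralogs that drive atrogenes in muscle, lay in opposite directions. Foxo1 has 4 probe sets, 3 of which come from one sequence record and so are not independent readings. Probe set 1416981_at read 6.86 and 7.85 in the controls against 6.52 and 6.14 with Wnt3A (means 7.36 ± 0.70 and 6.33 ± 0.27). Both Wnt3A arrays were below both controls, but the controls themselves were 0.99 apart and the nearest arrays of the groups only 0.34 apart. The difference was -1.03 (SE 0.40, 95% confidence interval -2.06 to 0.01, unadjusted p = 0.0510, adjusted p = 0.977 in limma).

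The other bright Foxo1 probe sets repeated this order of the arrays. On 1416982_at the signals were 5.97 and 6.88 in the controls against 5.63 and 5.30 with Wnt3A, a difference of -0.96 (SE 0.38). On 1416983_s_at, whose suffix marks probes that can bind transcripts of more than one gene, they were 7.69 and 8.84 against 7.61 and 7.09, a difference of -0.92 (SE 0.45). Here control replicate 1 and Wnt3A replicate 1 were only 0.08 apart. The size rested on control replicate 2: without it the 3 differences were -0.53, -0.51 and -0.34, and without control replicate 1 they were -1.52, -1.42 and -1.49. Differentiated muscle genes were highest on the same control array, and the part of this in the Foxo1 values was not tested. The remaining probe set, 1456529_at, stayed at 1.91 to 2.07 with a mean under the dim limit, and was not tested.

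Foxo3, by contrast, was higher with Wnt3A on all 3 of its probe sets, by a small amount that varied little between arrays. Probe set 1434832_at read 6.53 and 6.58 in the controls against 7.12 and 7.14 with Wnt3A. The arrays of a group were at most 0.04 apart and the groups 0.55 apart. The difference was 0.58 (SE 0.20, 95% confidence interval 0.05 to 1.10), about 1.49-fold, with an unadjusted p of 0.0374 and an adjusted p of 0.956 in limma. Limma takes part of its spread from other probe sets of like signal, so its SE is wider than the SDs of 0.03 and 0.01 of this probe set.

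On 1434831_a_at Foxo3 read 7.75 and 7.90 in the controls against 8.23 and 8.28 with Wnt3A, a difference of 0.43 (SE 0.19, adjusted p = 0.977 in limma). The dim probe set 1450236_at, from another sequence record and with a mean just inside the dim limit, read 1.98 and 1.88 against 2.26 and 2.24, a difference of 0.31 (SE 0.13). Both of its controls were under the limit of 2.01, so it was tested only through its Wnt3A signals and adds no separate support. The brighter probe sets, 1434832_at and 1434831_a_at, share a sequence record and are not independent readings. On both of these the gap between the groups was wider than the range within either group. That held in this direction for 4.17% of all tested probe sets. The measure was chosen after the values were seen, so it only describes these arrays. Leaving out any 1 array kept the difference between 0.55 and 0.60 for 1434832_at and between 0.36 and 0.51 for 1434831_a_at. For 1450236_at it stayed between 0.27 and 0.36. A difference at least as wide as that of 1434831_a_at was found in 18.7% of all tested probe sets.

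Foxo1 was also compared with Foxo3 within each array, a contrast that a common factor per array cannot alter; it and the like contrast of Gabarapl1 with Map1lc3b were chosen with the values known. With each probe set centred on its own mean, the tested Foxo1 signal minus the Foxo3 signal was 0.21 and 1.20 in the controls against -0.49 and -0.92 with Wnt3A. The groups did not overlap and differed by -1.41. An exact permutation test over the 4 arrays, two-sided, gave p = 0.333, the smallest p that 2 arrays against 2 allow. Each tested Foxo1 probe set was already lower, and each Foxo3 probe set higher, on both Wnt3A arrays than on both controls. The lack of overlap and this p followed from those values, so the contrast adds no support. The Foxo3 signal used here includes its dim probe set, whose controls were both under the dim limit. Foxo4, the third family member on the array, was dim at 3.77 and 3.28 in the controls against 3.54 and 3.12 with Wnt3A, a difference of -0.19 (SE 0.28) with overlapping groups.

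Fbxo32, the gene of atrogin-1 (MAFbx), the substrate-binding part of a ubiquitin ligase and a standard readout of muscle atrophy, had the widest differences of the set and the widest spread. Probe set 1448747_at read 9.38 and 8.20 in the controls against 8.59 and 5.69 with Wnt3A. Wnt3A replicate 1 lay between the controls, and Wnt3A replicate 2 was far below all other arrays. The difference of -1.65 had an SE of 1.03 and a 95% confidence interval of -4.33 to 1.03 (adjusted p = 0.977 in limma).

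Probe set 1417522_at, from the same sequence record, read 8.10 and 7.19 against 7.25 and 5.56, a difference of -1.24 (SE 0.65). Wnt3A replicate 1 again lay between the controls. Without Wnt3A replicate 2 the differences were only -0.20 and -0.39, and without Wnt3A replicate 1 they were -3.10 and -2.09. Sizes of 1.24 and more were reached by 2.26% of all tested probe sets, but the low Fbxo32 signal is that of 1 array. Myod1, which drives the muscle lineage, was also lowest there, at 3.62 against 6.32 to 7.11 on the others, and the part of this in the Fbxo32 values was not tested. The myoblast list that holds Myod1 did not go one way, with a median difference of 0.05. Of its 8 genes 3 were higher and 1 lower without overlap, beside 14.8% and 19.6% of all genes tested. Myf5, another factor of the muscle lineage, read 6.57 and 5.98 in the controls against 7.77 and 7.65 with Wnt3A (difference 1.43, SE 0.28, adjusted p = 0.629 in limma). The mean of the list was 6.99 and 7.24 in the controls against 7.39 and 6.71 with Wnt3A.

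**Figure D2:**
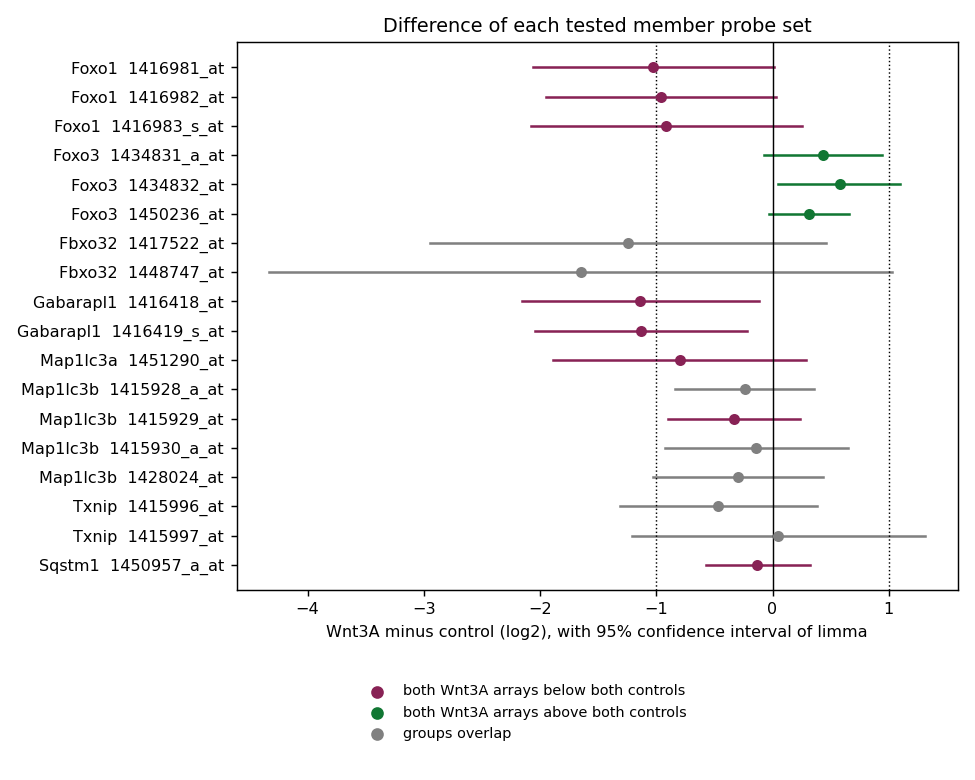
Wnt3A minus control (log2) for the 18 tested member probe sets; points are differences, bars are the 95% confidence intervals of limma before any adjustment, dotted lines mark 2-fold, and colour gives whether the arrays of the groups overlap. The 2 Gabarapl1 intervals and 1 of Foxo3 exclude 0, and the Fbxo32 intervals are the widest.

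Among the ubiquitin-like proteins that are joined to lipid on the growing autophagosome, Gabarapl1 lay lowest relative to its controls. It belongs to the GABARAP branch, which acts late in autophagosome formation, and it is a known FoxO target in muscle. On 1416419_s_at, which carries the same suffix as the third Foxo1 probe set, it read 9.51 and 9.99 in the controls against 9.03 and 8.21 with Wnt3A (means 9.75 ± 0.34 and 8.62 ± 0.57). Both Wnt3A arrays were below both controls, the nearest of them by 0.48, while the Wnt3A arrays differed from each other by 0.81. The difference was -1.13 (SE 0.35, 95% confidence interval -2.04 to -0.22), a 2.19-fold lower signal, with an unadjusted p of 0.0249 and an adjusted p of 0.895 in limma, the lowest of the set.

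Probe set 1416418_at of Gabarapl1 read 8.50 and 8.80 against 8.02 and 7.00, a difference of -1.14 (SE 0.39, adjusted p = 0.949 in limma). Both probe sets derive from one sequence record and the arrays took the same order on both. Without Wnt3A replicate 2 the differences were -0.72 and -0.63, and without control replicate 2 they were -0.89 and -0.99, so the direction was kept with a smaller size. The profile of 1416419_s_at over the 4 arrays was most like those of Csad, Il3ra and Rtp4, with a root mean square distance of 0.042, 0.077 and 0.083 after each was centred on its own mean.

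Its relatives differed less. Gabarap, which shares the branch, read 10.68 and 10.19 in the controls against 10.60 and 10.20 with Wnt3A, a difference of -0.03 (SE 0.26). Gabarapl2 read 7.85 and 7.60 against 7.67 and 7.99, a difference of 0.11 (SE 0.23). The intervals of these single differences are wide, and the contrast with Gabarapl1 was not tested.

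Map1lc3a and Map1lc3b encode LC3A and LC3B, members of the other branch of the family; LC3B is the usual marker of autophagosomes. Map1lc3a, on its single probe set, read 7.49 and 7.44 in the controls against 7.23 and 6.09 with Wnt3A. The controls agree closely and both Wnt3A arrays lay below them, one narrowly and one far. The difference was -0.80 (SE 0.42, adjusted p = 0.977 in limma, 95% confidence interval -1.89 to 0.29), and -0.23 without Wnt3A replicate 2.

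Map1lc3b lay a little lower on each of its 4 probe sets, 3 of which come from one record, within the spread of the arrays. On 1415930_a_at it read 10.55 and 10.02 in the controls against 10.45 and 9.85 with Wnt3A, a difference of -0.14 (SE 0.30). On 1415928_a_at it read 10.19 and 9.88 against 10.00 and 9.60, a difference of -0.24 (SE 0.23). In both the groups overlapped, with the arrays numbered 2 lower in each group. On 1415929_at, 9.34 and 9.03 against 9.00 and 8.72 gave -0.33 (SE 0.22, 95% confidence interval -0.90 to 0.24), with groups only 0.03 apart. The dim probe set 1428024_at, at 2.92 and 3.28 against 3.10 and 2.50, gave -0.30 (SE 0.28). The groups overlapped on 3 of the 4 probe sets and all 4 confidence intervals include 0, so no direction can be given for Map1lc3b. With the 0.32 that scaling to hybridization controls adds, they lay between -0.01 and 0.18. Within the arrays, Gabarapl1 minus Map1lc3b was 0.15 and 0.74 in the controls against -0.22 and -0.66 with Wnt3A, a difference of -0.88 (exact permutation test, two-sided, p = 0.333, the smallest possible). Any contrast without overlap gives this p, and the pair was chosen with the values known, so it adds no support.

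Sqstm1 encodes p62, the receptor that ties ubiquitin-marked cargo to LC3 and is itself digested by autophagy. Its 1 probe set was steady at 9.58 and 9.70 in the controls against 9.48 and 9.54 with Wnt3A. The difference was -0.13 (SE 0.17, adjusted p = 0.977 in limma, 95% confidence interval -0.57 to 0.32), and 0.19 after scaling to hybridization controls. A change of up to 0.57 on the log2 scale downwards lies inside that interval, so the arrays do not show that it was unaffected.

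Txnip encodes an arrestin-domain protein that binds thioredoxin and limits glucose uptake, and its promoter holds the FoxO core site shown above. On 1415996_at it read 9.63 and 8.80 in the controls against 8.83 and 8.67 with Wnt3A, a difference of -0.47 (SE 0.32). On 1415997_at, from the same record, it read 6.73 and 5.41 against 6.22 and 6.02, a difference of 0.05 (SE 0.48, 95% confidence interval -1.21 to 1.31). On both probe sets the controls were farther apart than the Wnt3A arrays, with control replicate 1 the highest of all. Without control replicate 1 the differences were -0.05 and 0.72, and without control replicate 2 they were -0.88 and -0.61, so no direction can be given for Txnip.

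**Figure D3:**
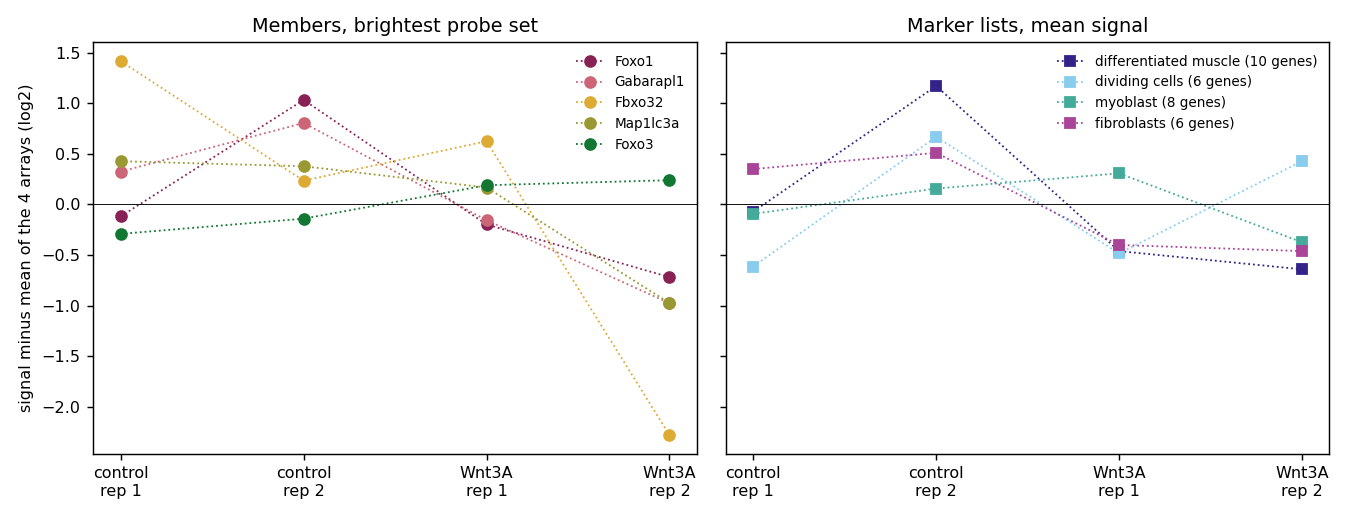
Signal minus the mean of the 4 arrays (log2) for the brightest probe set of 5 members (left) and for the mean of 4 marker lists (right); dotted lines only join the points of one gene or list. Foxo1 and the mean of the differentiated muscle genes were highest on control replicate 2 and lowest on Wnt3A replicate 2. Foxo3 was higher on both Wnt3A arrays.

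The array orders can be set beside the marker lists. From highest to lowest, the differentiated muscle mean ran control replicate 2, control replicate 1, Wnt3A replicate 1 and Wnt3A replicate 2. Foxo1 and Gabarapl1 took the same order on each of their 5 tested probe sets. Within each gene these share a sequence record, so they are not 5 independent agreements. How many of all tested probe sets have this order was not counted, though 17.9% lay lower with Wnt3A without overlap. All 10 differentiated muscle genes were lower with Wnt3A, with a median difference of -1.06. Of these, 8 were lower without overlap, as were 19.6% of all genes tested. Myog, which drives terminal differentiation, differed by -1.59 (SE 0.51, adjusted p = 0.919 in limma). Not every gene of the list took the order of its mean: Tnnc1 and Mymk were lowest on Wnt3A replicate 1. Fbxo32 and Map1lc3a were lowest on Wnt3A replicate 2, like the mean, but highest on control replicate 1. Foxo3 was higher on both Wnt3A arrays, but none of its 3 probe sets had the exact reverse of the order of the differentiated muscle mean. Whether the content of differentiated cells accounts for any of these values was not tested.

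The other genes of these pathways were looked up in 7 lists that hold 180 different genes, with 150 represented on the array and 141 tested, each by its brightest probe set. In limma 0 of them passed an adjusted p of 0.05 and 3 had an unadjusted p under 0.05, beside 0% and 5.28% of all genes tested. Of the 141 genes 21 (14.9%) were lower and 19 (13.5%) higher without overlap, where all 9685 genes tested had 19.6% lower and 14.8% higher. Their median difference was 0.01, beside -0.02 over all genes; the lists and members were chosen with earlier results known. One gene, Slc7a11, was at least 2-fold apart without overlap, beside 3.52% of all genes tested.

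In the list of FoxO family and their regulators 31 genes were tested; 6 were higher and 3 lower without overlap, with a median of 0.03. Stk4, the gene of the kinase MST1, which can phosphorylate FoxO proteins, read 2.52 and 2.28 in the controls against 2.91 and 2.88 with Wnt3A, a difference of 0.50 (SE 0.17). Pdpk1, the kinase that activates Akt upstream of FoxO, read 7.26 and 7.30 against 7.68 and 7.99, a difference of 0.56 (SE 0.22). Ywhag, a 14-3-3 protein gene, read 9.17 and 9.15 against 9.44 and 9.93, a difference of 0.53 (SE 0.23). All 3 were higher on both Wnt3A arrays, with adjusted p in limma between 0.948 and 0.977.

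Other reported FoxO targets went both ways, with 12 of 23 higher, 11 lower and a median of 0.04. Sod2, the mitochondrial superoxide dismutase, read 8.47 and 8.80 in the controls against 8.15 and 7.96 with Wnt3A, a difference of -0.58 (SE 0.22), though another of its probe sets gave 0.02. Trib1, a pseudokinase gene, differed by -0.55 (SE 0.22), and by 0.16 on its other probe set. Ccng2, a cyclin gene linked to arrest, read 9.12 and 9.17 against 9.34 and 10.21, a difference of 0.63 (SE 0.33).

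The other targets named in any case, apart from Ccng2, overlapped between the groups. Irs2, an insulin receptor substrate, differed by -0.70 (SE 0.46) and Sesn1, a stress-induced inhibitor of mTOR signalling, by -0.86 (SE 0.60). Sesn1 read 8.73 and 8.31 in the controls against 8.51 and 6.81 with Wnt3A, so its low value was again that of Wnt3A replicate 2. Pdk4, which holds back glucose oxidation, differed by 0.11 (SE 0.60) and the mitophagy receptor gene Bnip3 by 0.34 (SE 0.36). Cited2, a transcriptional cofactor, differed by 0.13 (SE 0.20), and by -0.14 on its other probe set.

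Of 23 other atrophy and ubiquitin genes 2 were higher and 3 lower without overlap, with a median of 0.09. Usp19, a deubiquitinase, read 7.38 and 7.48 in the controls against 7.18 and 6.55 with Wnt3A (difference -0.56, SE 0.29), and the ubiquitin ligase gene Nedd4 read 10.55 and 10.65 against 10.41 and 9.55 (difference -0.61, SE 0.32). Among their other probe sets, 1 of Usp19 gave only -0.05 and 1 of Nedd4 only -0.12. The calpain gene Capn2 differed by 0.46 (SE 0.24). On the brightest probe sets of Usp19 and Nedd4, replicate 2 was the lower of the Wnt3A arrays.

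Of the 30 tested genes of the core autophagy machinery 4 were higher and 7 lower without overlap, with a median of -0.03. Atg2a and Wdr45, which act together on lipid transfer to the growing membrane, differed by -0.49 (SE 0.26) and -0.46 (SE 0.25). Stx17, which fuses the autophagosome with the lysosome, differed by -0.37 (SE 0.22), though another of its probe sets gave -0.05. Ulk1, the initiating kinase, differed by 0.17 (SE 0.23), and by -0.02 on its other probe set. Tfeb, a master regulator of lysosomal genes, differed by 0.01 (SE 0.21). Among 12 other receptors and adaptors 1 was higher and 2 lower without overlap. Bcl2l13, a mitophagy receptor gene, differed by 0.65 (SE 0.26), the p62 relative Nbr1 by -0.37 (SE 0.23) and Tollip by 0.47 (SE 0.31), the last with overlapping groups.

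Around Txnip, 11 thioredoxin, arrestin-domain and MondoA genes were tested, 1 higher and 3 lower without overlap (median 0.04). Mlxip, the gene of MondoA, a glucose sensor known to drive Txnip, read 5.15 and 5.34 in the controls against 4.83 and 4.10 with Wnt3A, a difference of -0.78 (SE 0.33, adjusted p = 0.977 in limma). Txnrd1, a thioredoxin reductase, differed by -0.26 and by up to 0.30 on another probe set, and the kinase gene Map3k5 by -0.24. Arrdc4, another known MondoA target, was under the dim limit at 1.74 to 1.90. Around Sqstm1, whose protein releases the antioxidant factor NRF2 from KEAP1, 12 genes were tested, 3 of them higher and 0 lower without overlap (median 0.07). Slc7a11, the cystine transporter, was the only one at least 2-fold apart, at 2.40 and 3.33 in the controls against 4.13 and 4.33 with Wnt3A (difference 1.37, SE 0.36, adjusted p = 0.789 in limma). The lower of its controls lay near the dim limit. Nfe2l2, the gene of NRF2, read 9.12 on both controls and 9.30 and 8.94 with Wnt3A. Maff and Mafg, its small Maf partners, differed by 0.50 (SE 0.33) and 0.25 (SE 0.22), though the other probe set of Mafg gave -0.13.

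**Figure D4:**
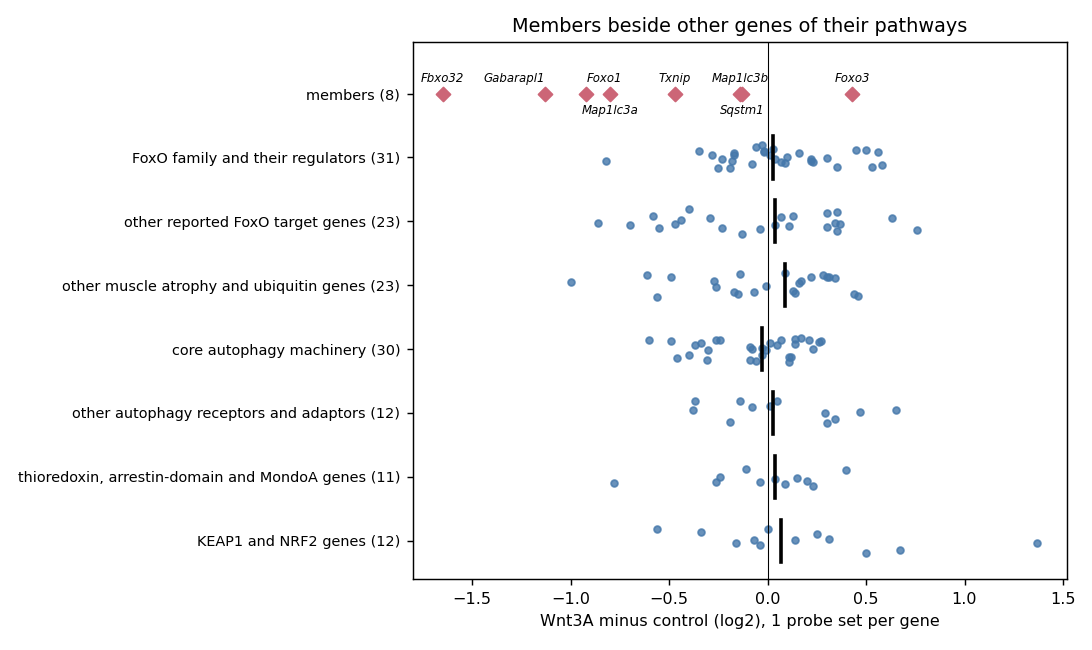
Wnt3A minus control (log2), 1 probe set per gene, for the 8 measured members (diamonds) and for the tested genes of 7 lists (points, numbers tested in brackets); black bars are list medians. The list medians lie between -0.03 and 0.09, and Fbxo32, Gabarapl1, Foxo1 and Map1lc3a lie at -0.80 or lower.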

How the data were processed

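The 4 columns of the deposited table were matched to samples by name, and groups and replicate numbers come from the titles and the treatment label. The protocol text names Wnt3A for the controls too. The table that the authors deposited holds 1 signal for each probe set on each array, and the submitters' processing notes list GCOS and PLIER, without a version or a role. Per the deposited values, which run from 0.50 to 13.23, the scale was taken as log2; the base is not stated, and another would rescale every difference. How the arrays were normalized or filtered, and against which build, is not given in the sources used here; no detection calls were used. Symbols came from the platform annotation, updated by Entrez ID to RefSeq (GRCm38.p6).

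The lowest 25% of 22626 probe sets outside the 64 array controls were left out. Limma 3.58.1 in R 4.3.3 tested the differences (lmFit, eBayes with an intensity trend, 4.77 degrees of freedom, two-sided), with the group as the only term and Benjamini-Hochberg adjustment over 16969 probe sets. The script was tested on simulated data. The members, lists and tests were chosen with earlier results of these data known. Lists were described by counts and medians over genes. Named genes were every member probe set, the 3 genes of lowest unadjusted p per list and 13 named in any case; other genes named beside a result, such as Myod1, Myf5 and Myog, came from the marker lists and were chosen after their values were seen. For Gabarapl1, the only member whose brightest probe set was at least 2-fold apart without overlap, the 3 genes nearest in profile were also named, by root mean square distance. The alternatives were a block for the replicate number, normalization by quantiles, median centring, scaling to 9 hybridization controls, other filters, no intensity trend, 1 probe set per gene and leaving out each array.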

Additional observations from a re-analysis of the deposited data

How the results depend on the processing

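No member passed an adjusted p of 0.05 under any alternative; the lowest was 0.147, for Fbxo32 with the replicate number as a block in limma. The block raised the calls among all probe sets from 0 to 83 and scaling to hybridization controls raised them to 172; every other alternative gave 0. Differences between arrays 2 and 1 of the control group correlated at 0.518 across probe sets with those of the Wnt3A group, but the labels do not pair the arrays. Of 209 member differences recomputed, 197 kept their direction and 12 reversed. The block, the filters and leaving out the intensity trend cannot change a difference, so the 197 include values that could not reverse. All 12 reversals came from rescaling the arrays or leaving 1 out. Hybridization control scaling adds 0.32 to every difference. It gave 0.08, 0.18 and 0.02 for Map1lc3b (1415928_a_at, 1415930_a_at, 1428024_at) and 0.19 for Sqstm1. For the dim Foxo1 probe set 1456529_at it gave 0.31, and median centring gave 0.01. This scaling left 0 members at least 2-fold apart without overlap, while the count over all tested probe sets was 710. With 1 probe set per gene Foxo1 is represented by 1416983_s_at, at -0.92 and so under 2-fold, and Gabarapl1 counts as 1. That left 1 member and 341 of all genes (3.52%) so apart, against 3 and 515 probe sets (3.03%) in the main fit. With 1 array left out these counts ran from 0 to 8 and from 565 to 1531, and differences from -0.08 to 0.08 for 1456529_at, from -0.44 to 0.16 for Map1lc3b 1415930_a_at and from -0.61 to 0.72 for Txnip 1415997_at. Such fits leave 1 array in a group, which is assumed to vary like the other group. Without detection calls, signals near 2.01 cannot be told from background, which limits 1456529_at of Foxo1 and 1450236_at of Foxo3.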
